A study of Mus musculus with 12 samples.

Results

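The genes described here are 9 genes of glycolysis and its hypoxic control: Hif1a, Hk1, Hk2, Hk3, Pkm, Pfkfb3, Ldha, Slc2a1 and Slc16a3. They were taken by gene symbol from the deposited table of 25611 genes, and all 9 were found. RNA-seq was performed in whole livers of 12 male C57BL6J mice aged 8 to 10 weeks, 4 in each of 3 groups, all collected 30 hr post-surgery. Sham mice had an abdominal incision with an untouched cecum, CLP mice had the cecum ligated and punctured 2 times, and CLP+DCA mice had the same surgery and received dichloroacetate (DCA) at 25 mg/kg intraperitoneally at 24 hr. All mice, sham included, were given subcutaneous saline. The labels give an injection at 24 hr and collection 6 hr later for all 12 mice. What sham and CLP mice received at 24 hr is not given in the sources used here. None of the 3 groups was sham mice given DCA, so DCA without sepsis was not measured.

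Glycolysis splits glucose into pyruvate, which is either oxidised in mitochondria or reduced to lactate. HIF1A is the oxygen-regulated subunit of the transcription factor HIF-1. It is degraded when oxygen is plentiful, so that much of its control lies beyond its transcript. HIF-1 is known to raise transcription of glucose transporters, glycolytic enzymes and lactate transporters, and it is activated in inflamed myeloid cells as well as by hypoxia. Normal hepatocytes use another set of isoforms, among them the liver pyruvate kinase (Pklr) and the glucose transporter GLUT2 (Slc2a2). DCA inhibits the pyruvate dehydrogenase kinases and thereby favours oxidation of pyruvate.

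HIF-1 binds DNA at hypoxia response elements with the core letters ACGTG or GCGTG. RefSeq promoter windows, from 250 bases before to 50 bases after a start site, were read for the members on GRCm38.p6, which shares the coordinates of mm10. Of 13 windows belonging to the 9 genes, 11 held at least 1 match to these letters on either strand, and each gene had a match in at least 1 window. Of all 32851 windows, 43.8% held a match. Letters CACGTG count on both strands and so give 2 matches. The windows of Ldha, which has the most matches, of Pfkfb3, the member with the largest fold over sham in CLP+DCA mice, and of Hk2 and Slc16a3, both with higher values in every CLP mouse than in any sham mouse, follow, written 5′ to 3′ on the strand of the gene, with matched letters in capitals.
Ldha: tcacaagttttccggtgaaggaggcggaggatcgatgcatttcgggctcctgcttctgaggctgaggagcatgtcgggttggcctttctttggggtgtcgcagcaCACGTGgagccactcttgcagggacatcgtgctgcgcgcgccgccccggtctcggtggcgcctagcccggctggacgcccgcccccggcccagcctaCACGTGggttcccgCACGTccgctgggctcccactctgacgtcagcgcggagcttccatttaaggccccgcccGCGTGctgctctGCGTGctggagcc
Pfkfb3: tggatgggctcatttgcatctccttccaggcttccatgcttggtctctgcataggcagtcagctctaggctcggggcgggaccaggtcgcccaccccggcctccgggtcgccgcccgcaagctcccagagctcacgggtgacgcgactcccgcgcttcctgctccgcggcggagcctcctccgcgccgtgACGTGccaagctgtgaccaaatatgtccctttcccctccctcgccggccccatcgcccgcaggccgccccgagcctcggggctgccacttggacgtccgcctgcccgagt
Hk2: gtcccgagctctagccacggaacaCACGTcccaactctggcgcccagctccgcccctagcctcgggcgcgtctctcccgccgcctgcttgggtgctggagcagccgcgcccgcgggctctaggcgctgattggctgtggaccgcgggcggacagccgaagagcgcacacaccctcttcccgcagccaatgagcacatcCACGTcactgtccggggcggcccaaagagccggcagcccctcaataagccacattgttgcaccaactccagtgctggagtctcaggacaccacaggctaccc
Slc16a3: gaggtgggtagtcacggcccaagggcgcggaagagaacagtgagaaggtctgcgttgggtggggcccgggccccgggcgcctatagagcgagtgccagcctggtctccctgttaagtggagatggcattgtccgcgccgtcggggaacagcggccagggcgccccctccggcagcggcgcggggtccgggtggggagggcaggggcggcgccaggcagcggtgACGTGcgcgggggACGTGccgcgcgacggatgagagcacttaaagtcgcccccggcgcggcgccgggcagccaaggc
The Ldha window (chr7:46845554-46845853, plus strand) held 7 matches, a number reached by 0.301% of all windows. The Pfkfb3 window (chr2:11553880-11554179, minus strand) held 1 match, 60 bases upstream of the start site, and a second RefSeq start of this gene had 4. The Hk2 window (chr6:82774405-82774704, minus strand) and the Slc16a3 window (chr11:120948817-120949116, plus strand) each held 2. Hk1, which was also higher in every CLP mouse than in any sham mouse, is not printed. Its first window held 0 matches and its second held 5. These letters describe the windows only, since binding was not measured.

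Between 24436513 and 44266819 reads per liver were counted on genes. Expression is given as CPM, a count scaled to the normalized size of its library so that libraries of different depth can be compared. A single edgeR quasi-likelihood fit of all 12 livers tested 13190 genes, and a gene was called at a Benjamini-Hochberg adjusted p of at most 0.05. A pair of livers stood apart. In CLP mouse 3, the summed level of 19 skeletal muscle markers was 3379 CPM, against 10.4 to 28.1 CPM in the other 11 livers, and none of the 19 was at 0 reads. In CLP+DCA mouse 3, the summed level of 13 neutrophil markers was 63.5 CPM, against 7.02 to 15.3 CPM in the other 3 CLP+DCA mice, 34.4 to 48.7 CPM in CLP mice and 6.965 to 10.04 CPM in sham mice. The summed level of 10 hepatocyte markers was lowest in the same CLP+DCA liver, at 33750 CPM. It was 59290 to 67910 CPM in the other 3 CLP+DCA mice, 37070 to 53880 CPM in CLP mice and 71520 to 90890 CPM in sham mice. Many results are therefore also given without these livers. In whole liver, more cells of a type cannot be told apart from more RNA per cell.

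None of the 9 genes passed the threshold in any comparison, although most values lay above sham in the livers of septic mice. In CLP versus sham, 2.78% of all tested genes were called, and 0 of the 9 members. At an unadjusted p under 0.05 there were 5 of 9 members and 3772 of the 13190 tested genes. Of the members, 8 of 9 log2 fold changes were above 0, with a median of 0.85 against 0.02 over all genes. Every CLP mouse was above every sham mouse for Hk1, Hk2 and Slc16a3, which is 3 of 9 members where 12.2% of all genes did so. Between CLP+DCA and sham, 0.0379% of genes and 0 members were called, and 3 members and 1714 of 13190 genes had an unadjusted p under 0.05. All 9 log2 fold changes of the members were above 0, with a median of 0.64 that was 0.33 without CLP+DCA mouse 3. Here Hk2 and Pfkfb3 did not overlap with sham, as did 4.78% of all genes in this direction. Between CLP+DCA and CLP, 0.00758% of genes and 0 members were called, and 2 members and 1319 of 13190 genes had an unadjusted p under 0.05. No member was higher in every CLP+DCA mouse than in every CLP mouse, against 2.32% of genes. The median log2 fold change of the members in this comparison was 0.12, and it was −0.52 without CLP+DCA mouse 3. Both septic groups were compared with the same 4 sham mice. The plot of log2 CPM relative to sham shows the 9 genes in every liver.

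**Figure D1:**
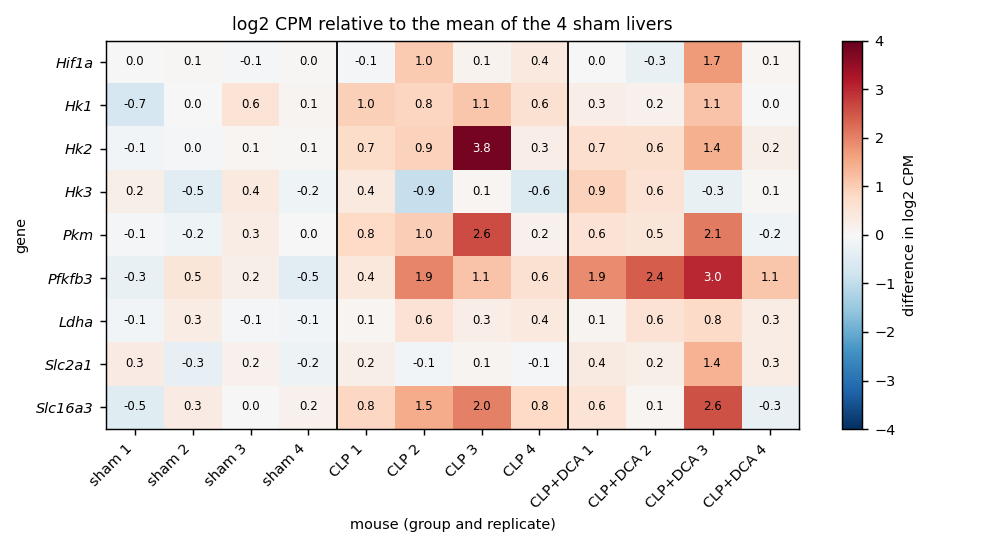
Difference in log2 CPM (colour scale and printed number) between each of the 12 livers (columns, by group and replicate) and the mean of the 4 sham livers, for the 9 genes (rows). The darkest cells belong to Hk2 in CLP mouse 3, which held muscle transcripts, and to Pfkfb3 in CLP+DCA mouse 3.

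The calls in CLP versus sham depended on which livers were fitted. When CLP+DCA mouse 3 was left out, a liver of neither group compared, Hk1, Hk2, Pkm and Slc16a3 passed the threshold, all 4 higher in CLP, while 23.8% of all genes were called. The same 4 genes passed without both CLP mouse 3 and CLP+DCA mouse 3, where 31.1% of genes were called. That pair of livers was chosen after values were seen. Without CLP mouse 3 alone, 0 members passed among 7.46% of genes called, and the median log2 fold change of the members was 0.69. When only the 8 livers compared were fitted, edgeR called Hk1 and Slc16a3 (18.3% of genes called) and DESeq2 called Hk1, Pkm, Pfkfb3 and Slc16a3 (23.3% of genes called). With voom and sample quality weights, Hk1, Pkm and Slc16a3 passed among 26.2% of genes called. In each of these fits the share of all genes called was likewise above that of the fit with all livers, and nothing is read from the number of members alone.

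**Figure D2:**
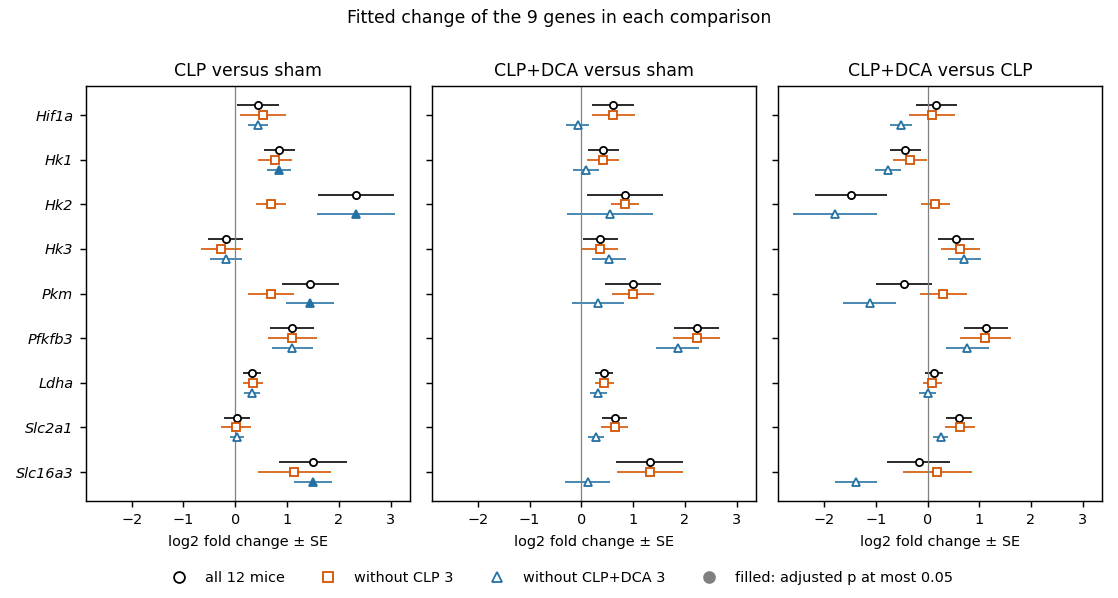
log2 fold change ± SE from edgeR for each of the 9 genes (rows) in the 3 comparisons (panels), fitted with all 12 livers (circles), without CLP mouse 3 (squares) and without CLP+DCA mouse 3 (triangles), with filled symbols for an adjusted p of at most 0.05. Only Hk1, Hk2, Pkm and Slc16a3 in CLP versus sham, without CLP+DCA mouse 3, are filled.

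The 9 transcripts differed widely in abundance. Per kilobase of exon in sham livers, Ldha led at 481 ± 68.9 CPM per kb (SD, n = 4), followed by Hif1a at 7.39 ± 0.278, Slc2a1 at 3.83 ± 0.813, Pkm at 3.71 ± 0.559 and Pfkfb3 at 1.77 ± 0.547. The hexokinases were lower, with Hk3 at 0.856 ± 0.231, Hk1 at 0.338 ± 0.116 and Hk2 at 0.159 ± 0.0107 CPM per kb, and Slc16a3 was lowest at 0.0658 ± 0.0178. Neighbours in this order did not overlap between sham mice, with Slc2a1 and Pkm as the exception. Hepatocyte isoforms were far above their counterparts on the same scale, with Pklr at 23.2 ± 4.97 and Slc2a2 at 19.5 ± 9.29 CPM per kb. In CLP mice the order of the hexokinases became unclear, with ranges of 0.428 to 1.1 CPM per kb for Hk3, 0.5 to 0.708 for Hk1 and 0.192 to 2.39 for Hk2, the upper end of Hk2 being CLP mouse 3. Exon lengths were taken from GENCODE vM21, which may differ from the annotation behind the counts.

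Hif1a (chr12:73901324-73947554 on mm10) was high in single livers and not in a whole group. It was at 39.5, 41.8, 38.5 and 41.1 CPM in sham mice 1 to 4, at 38.7, 83.1, 44.3 and 52.9 CPM in CLP mice, and at 39.7, 32.7, 132 and 42.3 CPM in CLP+DCA mice. CLP mouse 2 and CLP+DCA mouse 3 were high, and the other 10 livers lay between 32.7 and 52.9 CPM. Group means were 40.2 ± 1.51, 54.7 ± 19.7 and 61.6 ± 46.9 CPM (SD, n = 4 each). The log2 fold change was 0.44 ± 0.40 (SE, adjusted p = 0.467) in CLP versus sham, and 0.53 ± 0.44 (adjusted p = 0.423) without CLP mouse 3. Without CLP mouse 2, the highest of its group, it was 0.17. In CLP+DCA versus sham it was 0.62 ± 0.40 (adjusted p = 0.511), and without CLP+DCA mouse 3 it turned to −0.07 ± 0.21 (adjusted p = 0.96). The difference between CLP+DCA and CLP was 0.17 ± 0.40 (adjusted p = 0.909), and it was −0.52 ± 0.22 (adjusted p = 0.148) without CLP+DCA mouse 3.

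Slc2a1 (chr4:119108745-119137329), which encodes the basal glucose transporter GLUT1, was nearly level between sham and CLP mice, and a single CLP+DCA liver stood out. It was at 15.5, 9.83, 13.9 and 10.8 CPM in sham mice 1 to 4, at 14.6, 11.4, 13.2 and 11.8 CPM in CLP mice and at 15.9, 14.6, 32.2 and 15.1 CPM in CLP+DCA mice. Sham and CLP mice overlapped throughout, and CLP+DCA mouse 3 was above every other liver. The log2 fold change was 0.03 ± 0.25 (SE, adjusted p = 0.941) in CLP versus sham, and 0.01 ± 0.28 (adjusted p = 0.976) without CLP mouse 3. In CLP+DCA versus sham it was 0.64 ± 0.25 (adjusted p = 0.322), and 0.29 ± 0.15 (adjusted p = 0.605) without CLP+DCA mouse 3. Between CLP+DCA and CLP it was 0.61 ± 0.25 (unadjusted p = 0.0313, adjusted p = 0.452), and 0.25 without CLP+DCA mouse 3. The lowest CLP+DCA mouse, at 14.552 CPM, lay just under the highest CLP mouse, at 14.563 CPM.

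Hexokinases trap glucose in the cell as glucose 6-phosphate, and differ in where they are expressed: Hk1 widely, Hk2 in muscle, fat and activated cells, and Hk3 mainly in myeloid cells. Hk1 (chr10:62268855-62379908) was at 0.967, 1.56, 2.34 and 1.70 CPM in sham mice 1 to 4, at 3.11, 2.87, 3.43 and 2.42 CPM in CLP mice and at 1.92, 1.78, 3.55 and 1.56 CPM in CLP+DCA mice. All CLP mice were above all sham mice, and 3 of 4 CLP+DCA mice lay within the sham range. Hk1 was 1.80-fold higher in CLP than in sham (log2 fold change 0.85 ± 0.30, SE, adjusted p = 0.101), and 1.71-fold without CLP mouse 3 (adjusted p = 0.14). The fold was again 1.80 without CLP+DCA mouse 3 (adjusted p = 0.0237), and CLP+DCA mice then lay below CLP mice by a log2 fold change of −0.76 ± 0.25 (adjusted p = 0.0862). The antisense gene Hk1os overlaps this locus, and the library kit does not mark strand, so that reads in the overlap cannot be assigned.

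Hk2 (chr6:82725027-82774454) was at 0.818, 0.867, 0.950 and 0.930 CPM in sham mice 1 to 4, at 1.52, 1.72, 13.4 and 1.08 CPM in CLP mice and at 1.47, 1.41, 2.46 and 1.05 CPM in CLP+DCA mice. Both septic groups lay above sham without overlap, and CLP mouse 3 was far above every other liver. With all livers, Hk2 had the smallest adjusted p of the members in CLP versus sham, at a log2 fold change of 2.33 ± 0.73 (SE, adjusted p = 0.0799). Without CLP mouse 3 it was 0.69 ± 0.29 (adjusted p = 0.134), a 1.61-fold difference, with all 3 remaining CLP mice still above sham, as 18.7% of all genes were. Without CLP+DCA mouse 3 it was 2.34 ± 0.75 (adjusted p = 0.0474), with CLP mouse 3 in the group. CLP+DCA was 1.79-fold above sham (log2 fold change 0.84 ± 0.73, adjusted p = 0.608), and 1.47-fold above it (adjusted p = 0.898) without CLP+DCA mouse 3. The difference between CLP+DCA and CLP changed direction with the muscle-containing liver, from −1.48 ± 0.70 (adjusted p = 0.504) with it to 0.15 ± 0.28 (adjusted p = 0.851) without it.

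Hk3 (chr13:55005985-55021385) had no group above or below another. It was at 3.31, 2.01, 3.70 and 2.46 CPM in sham mice 1 to 4, at 3.69, 1.44, 2.95 and 1.84 CPM in CLP mice and at 5.40, 4.17, 2.27 and 2.89 CPM in CLP+DCA mice. The groups overlapped in all comparisons, and CLP+DCA mouse 3, the liver highest for 6 other members, was the lowest of its group here. Log2 fold changes were −0.19 ± 0.34 (SE, adjusted p = 0.731) in CLP versus sham, 0.36 ± 0.34 (adjusted p = 0.637) in CLP+DCA versus sham and 0.55 ± 0.34 (adjusted p = 0.62) in CLP+DCA versus CLP. Without CLP mouse 3 the first of these was −0.27 ± 0.38 (adjusted p = 0.641). Its end overlaps Unc5a on the other strand. The summed level of 14 macrophage and monocyte markers was 236 to 401 CPM in sham mice, 356 to 461 CPM in CLP mice and 284 to 571 CPM in CLP+DCA mice, lowest within the last group in CLP+DCA mouse 3.

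Pfkfb3 (chr2:11471431-11553929) encodes an inducible enzyme making fructose 2,6-bisphosphate, the strongest activator of the committed step of glycolysis. Against sham, no other member differed as much in CLP+DCA mice. Its values were 7.66, 13.3, 11.1 and 6.87 CPM in sham mice 1 to 4, 12.5, 36.5, 20.6 and 14.3 CPM in CLP mice, and 35.2, 51.1, 76.3 and 20.4 CPM in CLP+DCA mice. All CLP+DCA mice were above all sham mice, and CLP mice lay in between with overlap on both sides. Means were 9.75 ± 3.02, 21.0 ± 10.9 and 45.7 ± 23.9 CPM (SD, n = 4 each). In CLP+DCA versus sham, Pfkfb3 was 4.68-fold higher (log2 fold change 2.23 ± 0.44, SE, adjusted p = 0.146), and 3.63-fold higher without CLP+DCA mouse 3 (adjusted p = 0.202). DESeq2 on all 12 livers called it here, with a log2 fold change of 2.22 and an adjusted p of 7.12e-05, among 1.83% of genes called. In CLP versus sham it was 2.14-fold higher (log2 fold change 1.10 ± 0.43, adjusted p = 0.125), and 2.15-fold without CLP mouse 3 (adjusted p = 0.143). Without CLP mouse 2, the highest of its group, the log2 fold change in CLP versus sham was 0.697. CLP+DCA was 2.19-fold above CLP (log2 fold change 1.13 ± 0.42, adjusted p = 0.422), with 1.70-fold without CLP+DCA mouse 3 (adjusted p = 0.247). With voom and sample quality weights this difference passed the threshold, at 1.17 ± 0.31 (adjusted p = 0.038), where 10.2% of genes were called.

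Pkm (chr9:59656368-59679375) encodes the pyruvate kinase of muscle and of most non-hepatic cells. It was at 8.97, 8.47, 11.7 and 9.36 CPM in sham mice 1 to 4, at 16.6, 19.1, 58.0 and 10.8 CPM in CLP mice and at 14.4, 13.3, 40.5 and 8.53 CPM in CLP+DCA mice. CLP mouse 3 and CLP+DCA mouse 3 were highest, and CLP mouse 4 lay within the sham range. Pkm was 2.72-fold higher in CLP than in sham (log2 fold change 1.45 ± 0.55, SE, adjusted p = 0.12), and 1.61-fold without CLP mouse 3 (adjusted p = 0.3). Without CLP+DCA mouse 3 the fold was 2.73 (adjusted p = 0.0479), and DESeq2 on all 12 livers also called it (adjusted p = 0.0452), among 13% of genes called. It was 2-fold higher in CLP+DCA than in sham (adjusted p = 0.444), and 1.25-fold without CLP+DCA mouse 3 (adjusted p = 0.9). CLP+DCA lay below CLP at −0.45 ± 0.54 (adjusted p = 0.812), but above it at 0.31 ± 0.45 (adjusted p = 0.8) without CLP mouse 3.

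Ldha (chr7:46845804-46855627), which encodes the lactate dehydrogenase subunit that prevails in liver and muscle, was abundant and varied little. It was at 840.0, 1106, 865 and 833 CPM in sham mice 1 to 4, at 952, 1339, 1086 and 1187 CPM in CLP mice and at 974, 1352, 1523 and 1109 CPM in CLP+DCA mice. A single sham liver, mouse 2, lay within the range of both septic groups, and the other 3 sham mice were below all septic mice. Means were 911 ± 131, 1141 ± 163 and 1239 ± 245 CPM (SD, n = 4 each). Ldha was 1.25-fold higher in CLP than in sham (log2 fold change 0.33 ± 0.17, SE, adjusted p = 0.228), and 1.27-fold without CLP mouse 3 (adjusted p = 0.229). In CLP+DCA it was 1.36-fold above sham (log2 fold change 0.44 ± 0.17, adjusted p = 0.322), and 1.26-fold without CLP+DCA mouse 3 (adjusted p = 0.57).

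Slc16a3 (chr11:120948484-120959000) encodes MCT4, a monocarboxylate transporter that exports lactate from glycolytic cells. Only 5 to 73 reads per liver were counted on it. It was at 0.186, 0.371, 0.285 and 0.328 CPM in sham mice 1 to 4, at 0.553, 0.910, 1.35 and 0.539 CPM in CLP mice and at 0.447, 0.302, 1.98 and 0.223 CPM in CLP+DCA mice. All CLP mice were above all sham mice, and of the CLP+DCA mice mouse 3 alone was above all CLP mice, while the other 3 were below them. Slc16a3 was 2.82-fold higher in CLP than in sham (log2 fold change 1.5 ± 0.65, SE, adjusted p = 0.157), and 2.20-fold without CLP mouse 3 (adjusted p = 0.281). Without CLP+DCA mouse 3 the fold was 2.82 (adjusted p = 0.0168), and CLP+DCA then lay below CLP, at a log2 fold change of −1.38 ± 0.41 (adjusted p = 0.0672). The plot of CPM in each liver shows these groups side by side.

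**Figure D3:**
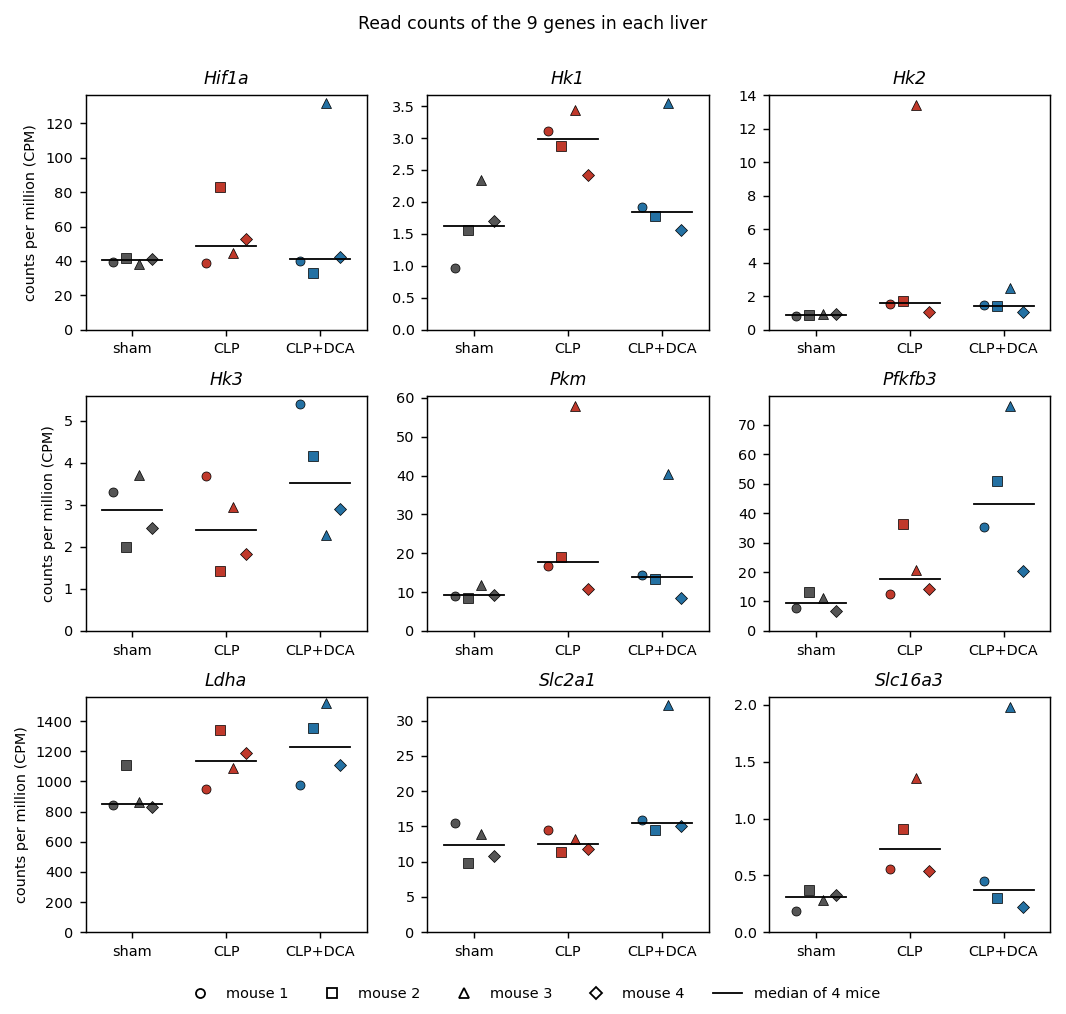
CPM (vertical axis, linear and starting at 0) of each of the 9 genes in the sham (grey), CLP (red) and CLP+DCA (blue) livers, with a symbol for each mouse number and a bar at the group median. Mouse 3 of the CLP+DCA group (blue triangle) is highest for 6 of the 9 genes and mouse 3 of the CLP group (red triangle) for Hk2 and Pkm.

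High values of the 9 genes gathered in few livers. CLP+DCA mouse 3 had the highest value for 6 members, Hif1a, Hk1, Pfkfb3, Ldha, Slc2a1 and Slc16a3, and it was the highest liver for 20.8% of the 13190 tested genes. CLP mouse 3 was highest for Hk2 and Pkm and for 7.66% of genes. CLP+DCA mouse 1 was highest for Hk3. The median SD of log2 CPM over the members among sham mice was 0.306, among CLP mice 0.592 and among CLP+DCA mice 0.543, against 0.155, 0.215 and 0.284 over all tested genes. Of the 13 neutrophil markers, 10 were higher in every CLP than in every sham mouse, as were 12.2% of all tested genes. The test called 2 of them (Mmp9 and Retnlg), where 2.78% of all genes were called. Ly6g, a defining neutrophil marker, was in neither set, at 0.669 to 1.04 CPM in sham mice and 0.269 to 0.701 CPM in CLP mice. The summed level of 12 stellate cell and cholangiocyte markers was 108 to 154 CPM in sham mice and 194 to 482 CPM in CLP mice. It was highest in CLP mouse 3, the muscle-containing liver, and 194 to 243 CPM in CLP mice without that liver. The sum was 439 CPM in CLP+DCA mouse 3 against 125 to 162 CPM in the other 3 CLP+DCA mice. Of the 12, 6 were higher in every CLP than in every sham mouse, against 12.2% of all tested genes. For 8 endothelial markers the sum was 132 to 169 CPM in sham, 171 to 203 CPM in CLP and 135 to 195 CPM in CLP+DCA mice. Hk1 and Slc16a3 were likewise higher in CLP mice and in CLP+DCA mouse 3, and the part of any of these cell types in their values was not tested.

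To set each gene against its family member that hepatocytes or other tissues use, log2 ratios were computed within each liver and compared by two-sided exact permutation tests, 15 in all over 3 comparisons, of which those of 4 pairs are given here. With 4 against 4 mice, p cannot be under 0.0286. The Pkm to Pklr ratio was −2.85 ± 0.39 in sham and −1.05 ± 0.93 in CLP mice (SD, n = 4 each), a difference of 1.80 without overlap (exact p = 0.0286, 0.214 adjusted over the 15 tests). Without CLP mouse 3 the difference was 1.39. In CLP+DCA versus sham the Pkm to Pklr ratio differed by 1.09, with overlap (exact p = 0.0857, adjusted 0.214). The Slc2a1 to Slc2a2 ratio was higher in CLP than in sham by 1.34 (exact p = 0.0857, adjusted 0.214). The Ldha to Ldhb ratio differed by −0.34 between CLP and sham (exact p = 0.943), but by 0.79 without CLP mouse 3, in which Ldhb was at 19.3 CPM against 0.574 to 1.38 CPM in the other 11 livers. The ratio of Slc16a3 to Slc16a1 (MCT1) differed by −0.12 between CLP and sham, whose mice overlapped. None of the 15 tests passed the threshold after adjustment.

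**Figure D4:**
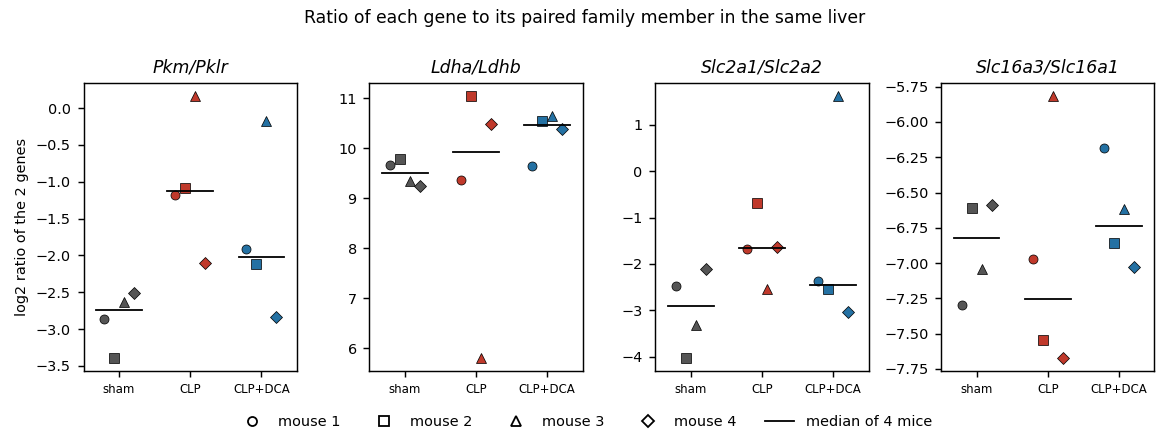
log2 ratio (vertical axis, a scale of its own in each panel) of each gene to its paired family member within the same liver, for sham (grey), CLP (red) and CLP+DCA (blue) mice, with a symbol for each mouse number and a bar at the group median. All CLP mice lie above all sham mice for Pkm/Pklr, and CLP+DCA mouse 3 (blue triangle) stands at 1.61 for Slc2a1/Slc2a2, away from the other 3 of its group.

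Among 26 further genes of glycolysis, 23 were tested. In CLP versus sham, Pfkfb2 rose and Pklr fell, and their median log2 fold change was −0.18. Pfkfb2, another fructose 2,6-bisphosphate enzyme, was at 35.2 to 45.8 CPM in sham mice and at 78.9, 147, 73.5 and 114 CPM in CLP mice 1 to 4, a log2 fold change of 1.27 ± 0.27 (SE, adjusted p = 0.0396). Pklr, the liver pyruvate kinase, was at 53.4 to 89.6 CPM in sham mice and at 37.7, 40.7, 52.0 and 46.6 CPM in CLP mice, a log2 fold change of −0.67 ± 0.16 (adjusted p = 0.0479). Without CLP mouse 3, 7.46% of all genes were called, and Gpi1 fell as well. Pfkfb2 at 1.40 ± 0.27 (adjusted p = 0.0273) and Pklr at −0.76 ± 0.17 (adjusted p = 0.0327) were also called there. Neither was called in CLP+DCA versus sham or in CLP+DCA versus CLP. Pfkfb2 was also higher in all CLP+DCA mice than in all sham mice, at 1.05 ± 0.27 (adjusted p = 0.23), and Pklr was at −0.36 ± 0.16 (adjusted p = 0.376). Without CLP+DCA mouse 3, 3 of the 23 genes rose and 8 fell in CLP versus sham, where 23.8% of all genes were called, and the proton-linked transporter Slc16a1 was among those that rose, by 1.49 ± 0.24 (adjusted p = 0.00372). In that fit, Slc16a1 and Pfkfb1 fell in CLP+DCA versus CLP, Slc16a1 with a log2 fold change of −1.57 ± 0.26 (adjusted p = 0.0192), among 4.64% of all genes called. Its values were 37.5 to 45.5 CPM in sham mice, 76.9, 181, 79.8 and 122 CPM in CLP mice 1 to 4, and 36.9, 42.2, 200.3 and 37.1 CPM in CLP+DCA mice.

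Of 9 other HIF subunits and oxygen-sensing genes, 7 were tested and none was called in the 3 comparisons, with medians of −0.06, 0.04 and 0.09. The smallest p in CLP versus sham belonged to Epas1, which encodes HIF2A, at 148 ± 21.6 CPM in sham and 190 ± 25.7 CPM in CLP mice (SD, n = 4 each), which is 0.36 ± 0.13 on a log2 scale (SE, adjusted p = 0.111). Without CLP mouse 3, the oxygen-sensing hydroxylase gene Egln1 fell in CLP versus sham, where 7.46% of all genes were called. Without CLP+DCA mouse 3, Hif3a rose in the same comparison, where 23.8% of all genes were called. Without both livers Egln1, Egln3 and Epas1 passed among 31.1% of genes called, 1 of them higher in CLP and 2 lower. A list of 24 other HIF targets shared Pfkfb4 with the further glycolysis genes and Egln3 with the oxygen-sensing genes. Of these 24 targets, 20 were tested and none was called in any comparison. Their median log2 fold change was −0.23 in CLP versus sham, 0.42 in CLP+DCA versus sham and 0.35 in CLP+DCA versus CLP, against 0.02, 0.01 and 0.01 over all genes. Without CLP+DCA mouse 3 the medians of these targets against sham and CLP were 0.02 and 0.21. Bhlhe40, a transcriptional repressor, was at 112, 132, 101 and 87.8 CPM in sham mice 1 to 4, at 58.1, 39.0, 69.3 and 39.4 CPM in CLP mice and at 129, 111, 269 and 138 CPM in CLP+DCA mice. It was below sham in every CLP mouse (log2 fold change −1.07 ± 0.29, adjusted p = 0.0623) and above CLP in every CLP+DCA mouse (1.65 ± 0.29, adjusted p = 0.122). Without CLP mouse 3, Bhlhe40, Higd1a, Mxi1 and Pdk1 fell in CLP versus sham, 4 of 20 targets where 7.46% of all genes were called. With CLP+DCA mouse 3 left out, 4 of the 20 targets rose and 6 fell in CLP versus sham, against 23.8% of all genes called in either direction. The members had the highest median of the 4 lists in CLP versus sham, which is a description with no test between lists.

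**Figure D5:**
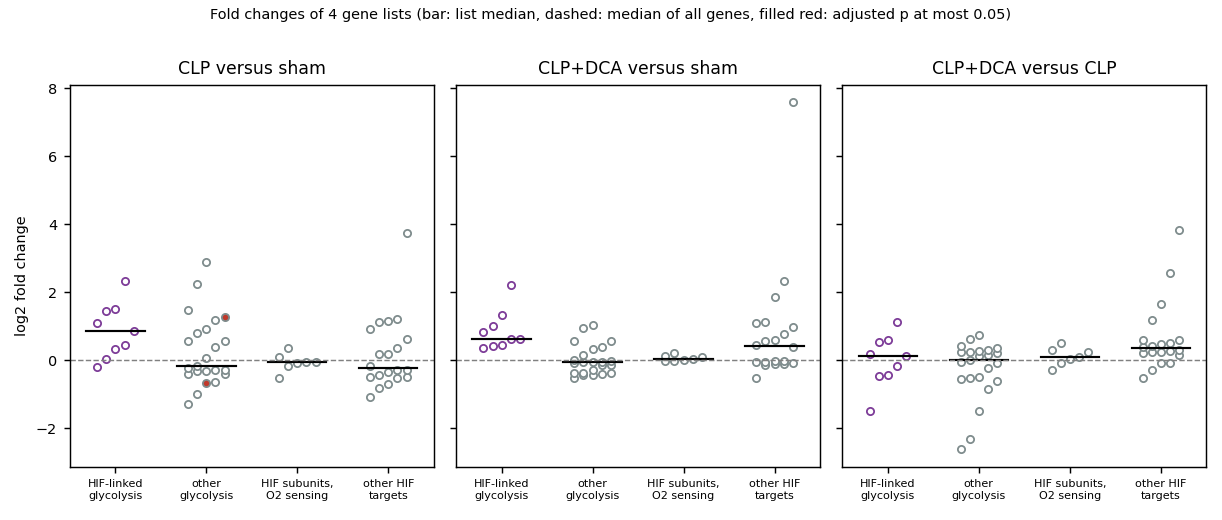
log2 fold change of every tested gene (points) in 4 gene lists (horizontal axis) for the 3 comparisons (panels), with a bar at the list median and a dashed line at the median of all tested genes. Pfkfb2 and Pklr, in CLP versus sham, are the only points with an adjusted p of at most 0.05. Pfkfb4 and Egln3 appear in more than a single list.

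The genes with the most similar pattern to each member were found by Pearson r of log2 CPM over the 12 livers, whose points share normalization and 2 livers that stand apart. CLP+DCA mouse 3, the highest liver for 6 members including Hif1a, was part of every r given here, and no r was computed without it. For Hif1a the most similar genes were Mapk6 (r = 0.989) and Riok3 (0.983), at 0.99 and 0.983 without CLP mouse 3. For Hk2 they were Fhl1 (0.967) and the muscle intermediate filament gene Des (0.966), replaced by Iqgap1 (0.975) and Cd38 (0.971) over the 11 livers without CLP mouse 3. For Pkm they were Ly6a (0.952) and Gys1 (0.947), replaced by 1500011B03Rik (0.988) and Srgn (0.969). Hk1 was closest to Mcemp1 (0.963) and Mxra8 (0.95), the same 2 genes with and without CLP mouse 3. Slc16a3 was closest to Fabp4 (0.98) and Gja1 (0.972), and without CLP mouse 3 to Fabp4 (0.975) and Clcf1 (0.974). Pfkfb3 was closest to H2-D1 (0.967) and Cln8 (0.948), and without CLP mouse 3 to H2-D1 (0.971) and the HIF target Ddit4 (0.961). Slc2a1 had Sap30 (0.928) and Ltv1 (0.901) first on both sets of livers. For Ldha they were Flot2 (0.949) and Haus8 (0.929), and without CLP mouse 3 Nme7 (0.966) and Flot2 (0.96). The r of the closest gene was lowest for Hk3, which had Hdac9 (0.905) and Axl (0.902), and without CLP mouse 3 Tnfaip8 (0.932) and Ercc2 (0.926). Each r was picked as 1 of the 2 highest over all tested genes outside the members, so a high value alone says little.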

How the data were processed

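RNA-seq was performed on poly(A) libraries (TruSeq v2, 100 bp paired-end) of Trizol-extracted livers. Per the labels' processing notes, the authors used STAR 2.5 on mm10 and featureCounts of Subread 1.5.0-p1, and they deposited raw counts for 25611 genes, not normalized. The annotation and the strand setting are not given in the sources used here. Counts were filtered (filterByExpr, minimum count 10), TMM-normalized and tested with edgeR 4.0.16 (robust quasi-likelihood fit, Benjamini-Hochberg adjustment). DESeq2 1.42.0, limma 3.58.1 (voom), other normalizations, filters and thresholds, a replicate block and leaving out each liver were alternatives. Log2 CPM used a prior count of 2. The scripts were tested on simulated counts in which 200 of 13190 genes differed 4-fold in the CLP group. Of these, edgeR on all 12 libraries recovered 176 with 5 wrong calls, and voom 175 with 9. DESeq2 recovered 191 with 36 wrong calls on all 12 libraries, and 189 with 59 on the 8 compared. The DESeq2 calls given here carry that limit. The simulated counts used the spread that edgeR estimated for each gene, only 4-fold changes and no liver that stood apart. These numbers of recovered and wrong calls may therefore not hold for the real livers, with any of the tools.

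Named are the 9 members, 4 paired genes, from 3 pathway lists the genes past the threshold or else the smallest p in CLP versus sham, and the 2 genes most like each member. Other genes of the lists that passed without CLP mouse 3, CLP+DCA mouse 3 or both, and the neutrophil genes, were named after their values were seen. Some planned results are not reported here. Members and lists were chosen with earlier results of these data known. Each liver is 1 mouse, and no library was a copy of another. Precision is set by the spread between mice and, for low genes such as Slc16a3, by counting error.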

Additional observations from a re-analysis of the deposited data

Results flagged for a closer look

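Within each group of 4 mice, a value was marked where its gap to the nearest other mouse was a large part of the group's range (above Dixon's 95% critical value). Of 27 tests on the log2 CPM of the members, 2 were marked, and of 12 on the within-liver log2 ratios, 1. Member values are printed below as CPM, a scale on which the test was not run. On the log2 scale, Hk2 in CLP mouse 3 and Hif1a in CLP+DCA mouse 3 were not marked, though both were far above their groups in CPM. Chance marks about 1 in 20 groups. Ldha in sham mouse 2 was at 1110 CPM, while the other 3 sham mice lay between 833 and 865 CPM. Slc2a1 in CLP+DCA mouse 3 was at 32.2 CPM, while the other 3 lay between 14.6 and 15.9 CPM. In the same liver, the log2 ratio of Slc2a1 to Slc2a2 was 1.61, against −3.03 to −2.37 in the other 3 CLP+DCA mice. Slc2a2 was at 10.5 CPM in that liver, the lowest value of the 12 livers. The summed neutrophil markers of that liver (63.5 CPM) were the highest of the 12, and their part in these values was not tested.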

How the results depend on the processing

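Across all alternatives, 630 log2 fold changes of members kept their direction and their side of the threshold, 23 passed it in addition and 19 changed direction, and of the ratio differences 231 kept theirs and 9 changed direction. The causes were not tested. As reported, 367 genes were called between CLP and sham, 5 between CLP+DCA and sham and 1 between CLP+DCA and CLP, and other numbers follow in this order. The numbers were 1894, 247 and 136 with DESeq2 on all 12 libraries, 3428, 169 and 80 with DESeq2 on the 8 libraries compared, 2387, 0 and 0 with edgeR on those 8, and 3453, 496 and 1341 with voom. They were 209 and 3 in the first 2 comparisons with library size alone, 122 in the first without a filter, 10, 1 and 0 at an FDR of 0.01, 2022 and 6 in the first and last at 0.10, and 4104 and 2227 in these without CLP mouse 3 and CLP+DCA mouse 3 together, a pair chosen after seeing the data. Members called in CLP versus sham numbered 1, 4, 2 and 3 with those 4 tools in turn, 1 at an FDR of 0.10 and 4 without the 2 livers. In CLP+DCA versus sham 1 member, Pfkfb3, was called by both DESeq2 fits and by voom, and in CLP+DCA versus CLP 1, again Pfkfb3, by voom.

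Leaving out each mouse gave 10 (without sham mouse 3) to 3157 (without CLP+DCA mouse 3) genes called in CLP versus sham, with 0 to 4 members. Every mouse but CLP+DCA mouse 4 moved that number of genes by over 1.5 times. The ranges were 1 to 11 genes between CLP+DCA and sham and 0 to 616 between CLP+DCA and CLP. Directions changed for Slc2a1 in CLP versus sham (−0.0702 to 0.148) and Hif1a in CLP+DCA versus sham (−0.0742 to 0.838). In CLP+DCA versus CLP they changed for Hif1a (−0.515 to 0.446), Hk2 (−1.8 to 0.153), Pkm (−1.12 to 0.308) and Slc16a3 (−1.38 to 0.188). Ratio differences that changed direction were Slc16a3/Slc16a1 (−0.511 to 0.107) and Ldha/Ldhb (−0.958 to 0.786) in CLP versus sham and Slc2a1/Slc2a2 (−1.01 to 0.539) in CLP+DCA versus CLP.

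With voom, Hk3 in CLP versus sham was 0.0283, Hif1a was −0.027 in CLP+DCA mice against sham and −0.302 against CLP, and Ldha in the last was −0.0351. With library size alone, Slc2a1 in CLP versus sham was −0.132, while the median of all genes lay at −0.154 there, −0.0456 in CLP+DCA versus sham and 0.119 in CLP+DCA versus CLP, and 47.8% instead of 58.9% of genes called in CLP versus sham were higher. Without the 2 livers together, Hif1a was −0.0739 against sham and −0.606 against CLP in CLP+DCA mice, Ldha was −0.0204 against CLP, the Ldha/Ldhb difference was 0.786 in CLP versus sham and −0.1 in CLP+DCA versus CLP, and that of Slc2a1/Slc2a2 in the latter was −1.31. With a prior count of 0.5, the Slc16a3/Slc16a1 difference in CLP versus sham was 0.00729.

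Deviations of same-numbered mice of different groups had correlations of −0.459 to 0.55 without a common sign, highest for CLP mouse 1 with CLP+DCA mouse 1. So few correlations cannot decide whether the numbers pair mice, and the main fit did not pair them. With the replicate number as a block, 46, 0 and 4 genes and 0 members were called in the 3 comparisons. All 9 members passed the count filter, so the analysis planned for members below it has no values, and Slc16a3 has none under a filter of 1 CPM in every mouse of a group. With 5 to 73 reads per liver, depth limits Slc16a3 most.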
